A study of Mus musculus with 6 samples.

Results

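The 3 TAM receptor tyrosine kinases and 3 ligands of dead-cell clearance were followed through the synovium, the joint lining, of mouse knees. The 6 genes were Axl, Mertk and Tyro3 (receptors), Gas6 and Pros1 (the ligands of these receptors) and Mfge8 (a bridging ligand for integrins). They were taken by name from the 31017 genes of the count matrices, and all 6 were present. Single cells were sequenced in droplets with the 3′ chemistry of 10x Genomics, in which a unique molecular identifier (UMI) marks each captured transcript. Each of the 6 libraries was a group of its own: healthy wild type mice, healthy Notch3-/- knockout mice, arthritic wild type mice, arthritic Notch3-/- knockout mice, arthritic mice that received an isotype control, and arthritic mice that received an anti-Notch3 monoclonal antibody. The joints of the arthritic mice had been inflamed by transfer of serum from K/BxN mice. Notch3 is a receptor of mural cells and fibroblasts that is engaged by ligands on neighbouring cells such as endothelium. The labels name neither the strain, age and sex of the mice nor the dose or timing of serum and antibody, and the knockout is named as Notch3-/- with no Cre or promoter.

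TAM receptors bind Gas6 and Protein S (the product of Pros1), whose Gla domains attach to phosphatidylserine exposed on dying cells, so that a phagocyte holding the receptor can engulf the corpse. Mertk is the receptor best known for steady clearance by tissue macrophages, Axl is known in inflamed tissue and in mesenchymal cells and binds Gas6 with high affinity, and Tyro3 is best known in the nervous system. Mfge8 also binds phosphatidylserine and hands the dying cell to integrins instead of TAM receptors. Signals from TAM receptors are known to dampen cytokine and interferon responses.

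The promoters of Axl and Gas6 are shown because these are the receptor and ligand whose levels parted most between fibroblast subtypes, and that of Mfge8 because it alone among the 6 held the motif searched for Notch signalling. The sequences are those of RefSeq on the build GRCm38.p6, from 250 bases before to 50 bases after the start of the gene, on the strand of the gene, and all 6 genes matched an entry. The first, chr7:25788684-25788983 on the minus strand, is 60.3% G or C; the second, chr8:13494486-13494785 on the minus strand, 58.3%; the third, chr7:79149011-79149310 on the minus strand, 64.3%. Capitals mark a match to GGGGCGGGG (a GC box) in Axl and Gas6 and to TGGGAA (the core bound by RBPJ, the DNA-binding partner of Notch) in Mfge8, on either strand.
Axl: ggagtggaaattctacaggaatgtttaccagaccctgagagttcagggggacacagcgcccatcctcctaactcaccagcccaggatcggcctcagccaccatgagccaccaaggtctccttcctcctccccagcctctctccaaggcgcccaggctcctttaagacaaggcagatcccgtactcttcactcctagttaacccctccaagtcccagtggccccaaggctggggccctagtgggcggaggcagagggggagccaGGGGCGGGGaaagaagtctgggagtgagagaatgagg
Gas6: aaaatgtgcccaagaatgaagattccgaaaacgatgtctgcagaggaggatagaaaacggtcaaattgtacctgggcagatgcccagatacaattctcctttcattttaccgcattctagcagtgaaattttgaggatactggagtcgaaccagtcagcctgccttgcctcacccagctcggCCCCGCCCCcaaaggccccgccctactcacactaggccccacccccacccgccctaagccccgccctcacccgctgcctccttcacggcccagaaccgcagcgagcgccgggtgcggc
Mfge8: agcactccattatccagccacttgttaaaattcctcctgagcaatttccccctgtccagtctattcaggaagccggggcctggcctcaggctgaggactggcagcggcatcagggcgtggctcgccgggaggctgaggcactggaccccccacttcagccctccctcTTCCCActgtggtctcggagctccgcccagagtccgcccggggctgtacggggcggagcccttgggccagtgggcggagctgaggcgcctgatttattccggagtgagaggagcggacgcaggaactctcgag
The core TGGGAA stood in the promoter of Mfge8 alone among the 6, where its first base lay 83 bases before the start on the opposite strand; 25.6% of 32851 RefSeq promoters of the same length held it. The GC box stood in those of Axl, Mertk, Gas6 and Pros1 and in 11.4% of all promoters, and Tyro3 held neither motif. The letters of the 2 motifs do not overlap each other in these windows. A match is a description of these letters and not a binding site or a cause.

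All 6 are protein-coding genes in the GENCODE vM21 annotation of mm10. Axl spans chr7:25757273-25788705 on the minus strand, Mertk chr2:128698956-128802894 on the plus strand, Tyro3 chr2:119797733-119818104 on the plus strand, Gas6 chr8:13465374-13494490 on the minus strand, Pros1 chr16:62854307-62929346 on the plus strand and Mfge8 chr7:79133768-79149060 on the minus strand. The span of Gas6 overlaps that of Tmem255b on the opposite strand and the span of Mertk overlaps the antisense gene Gm14011. No source used here says whether reads were counted by strand, so reads of Mertk and its antisense partner, and of Gas6 and Tmem255b where they overlap, are uncertain to that extent.

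Each library pooled the tissue of 10 mice, and 7000 sorted living cells were loaded, so a group has no replicate library and the spread between mice is not known. After filtering, 17898 cells remained (2043 to 4897 a library), with 11636998 to 24535233 UMIs a library and 5 to 29 barcodes shared between any 2 libraries. Fibroblasts numbered 10209 in 8 clusters, myeloid cells 4488 in 6, and endothelial cells 1107 in 3; the 7 fibroblast markers summed to 28570 to 47950 CPM in fibroblasts, against 218 to 1132 in myeloid and 260 to 2759 in endothelial cells, and the myeloid and endothelial markers were at least as far apart. Notch3 stood at 4.96, 0.299, 5.58, 0.257, 3.30 and 2.21 UMIs per 1000000 UMIs over all cells (114, 7, 66, 3, 68 and 25 UMIs), in the order of the groups above; it was low in both knockout libraries, and an antibody against the protein need not lower the transcript. The library tags of the healthy pair are numbered far apart and those of each arthritic pair side by side, so a batch of the healthy pair cannot be told apart from its genotypes.

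Below, a level is the summed UMIs of a gene in a class or cluster of a library per 1000000 UMIs of that class or cluster (CPM). Values per library are always given in one order: wild type and then knockout of the healthy pair, wild type and then knockout of the arthritic pair, and isotype and then anti-Notch3. Intervals are 95% exact Poisson intervals for levels and Clopper-Pearson intervals for shares of cells, and cover counting error only. A 3′ UMI count does not scale with the length of a gene, but capture differs between genes, so levels are compared between cells and not between genes.

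The 3 receptors had different homes. Axl was a receptor of fibroblasts, at 227, 341, 234, 330, 243 and 302 CPM (1568 to 5777 UMIs a library), and was found in 68.2% of them. In myeloid cells Axl stood at 35.8, 44.9, 90.7, 45.1, 41.4 and 61.3 CPM, and in endothelial cells at 31.5, 13.2, 5.31, 27.2, 9.10 and 21.2 CPM on 4 to 18 UMIs a library. The fibroblast level lay above both others in each library, with no overlap of their ranges. Between classes, with the library as a block in edgeR's quasi-likelihood test on summed counts (12413 genes tested), Axl was lower in myeloid cells than in fibroblasts by a log2 difference of -2.37 (SE 0.264, adjusted p = 6.90e-07) and in endothelial cells by -4.47 (SE 0.339, adjusted p = 1.53e-08). In that fit 65.6% of all genes passed between myeloid cells and fibroblasts, 51.6% between endothelial cells and fibroblasts and 53.9% between endothelial and myeloid cells, so passing alone sets a gene apart from few others.

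Few endothelial cells held an Axl UMI. One was found in 3.79% of endothelial cells (2.75 to 5.09%, median 2641 UMIs a cell) and in 5.13% of T and NK cells (2.96 to 8.19%, median 2080.5 UMIs), a class taken here as a gauge of free RNA in the droplets. With each cell thinned to 2000 UMIs the shares were 2.43% and 4.19%, against 39.1% in fibroblasts and 9.18% in myeloid cells. The endothelial share did not exceed that of T and NK cells, so this gauge neither shows nor excludes expression of Axl in endothelial cells. The myeloid share lay above that of T and NK cells. Library by library the 2 classes did not run together: Axl in T and NK cells stood at 11.6, 15.9, 40.7, 8.02, 17.2 and 27.3 CPM on few UMIs, highest in the arthritic wild type library, where endothelial Axl was lowest. The part of free RNA in the endothelial level was not tested.

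Mertk, the clearance receptor of macrophages, was a myeloid receptor here, at 43.4, 18.4, 20.9, 20.5, 26.9 and 25.7 CPM (45 to 240 UMIs a library). In fibroblasts it stood at 5.12, 2.84, 2.68, 2.19, 2.52 and 4.12 CPM, below the myeloid level in each library. In endothelial cells it stood at 24.5, 22.6, 2.65, 13.6, 12.7 and 13.3 CPM on 2 to 14 UMIs. Mertk was higher in myeloid cells than in fibroblasts by a log2 difference of 3.03 (edgeR, SE 0.204, adjusted p = 1.36e-09). Endothelial Mertk lay between, 1.73 above fibroblasts (SE 0.287, edgeR adjusted p = 9.10e-05) and lower than myeloid cells by -1.30 (SE 0.251, adjusted p = 3.59e-04). A Mertk UMI was found in 10.5% of myeloid, 4.43% of endothelial, 1.94% of fibroblast and 0.641% of T and NK cells, so the endothelial share stood above that of T and NK cells.

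Tyro3 was scarce throughout. Fibroblasts held it at 2.73, 1.66, 4.47, 2.97, 3.30 and 3.05 CPM (20 to 40 UMIs a library), in 1.70% of cells. The 4488 myeloid cells held 6 Tyro3 UMIs in all, and none was seen in 1107 endothelial cells, which bounds the share of such cells with a UMI at 0.333%. In edgeR's test Tyro3 was lower than in fibroblasts by -3.31 in myeloid cells (SE 0.536, adjusted p = 2.00e-04) and passed also in endothelial cells (adjusted p = 0.00162), where a fold against a class at 0 depends on the prior count of the fit and is not given. A difference between myeloid and endothelial cells was not detectable at this depth (adjusted p = 0.203).

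**Figure D1:**
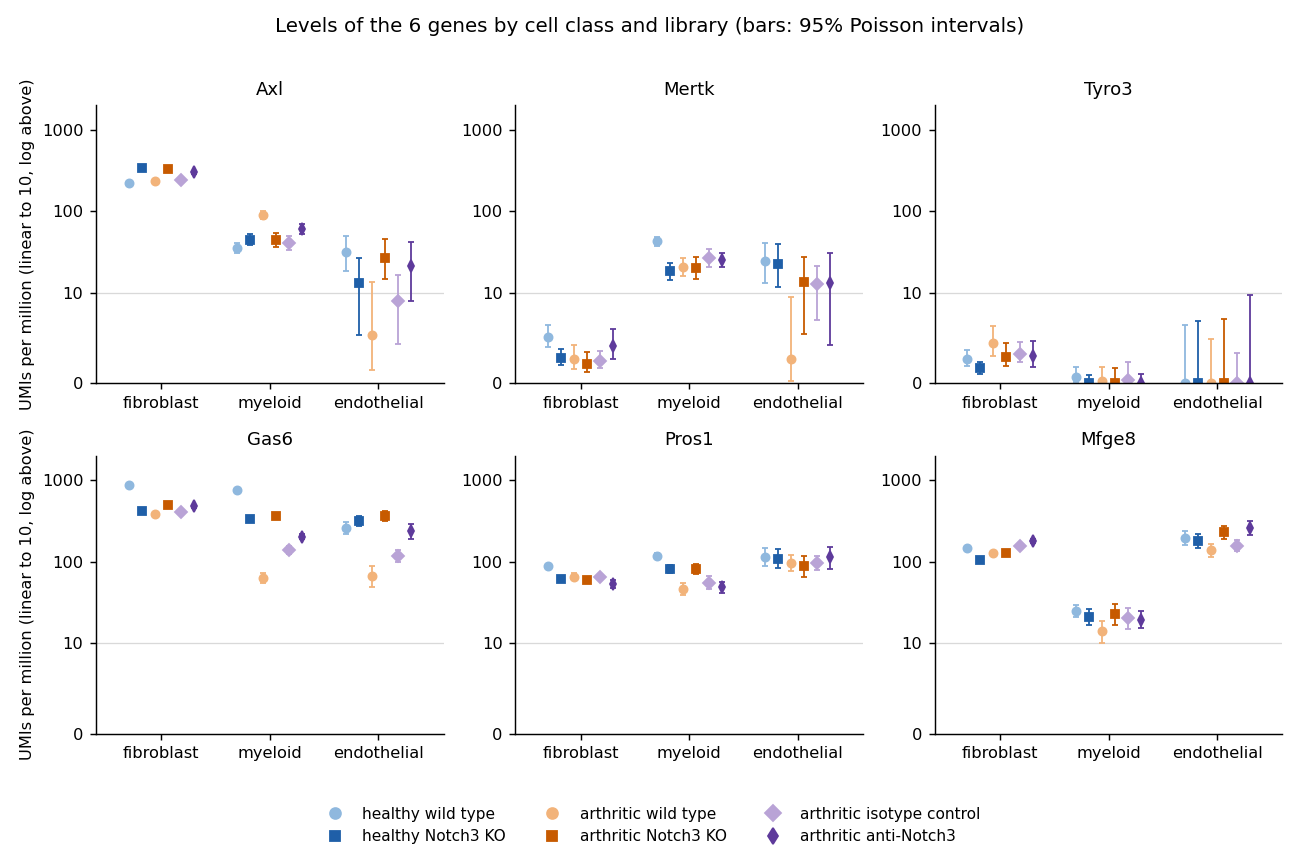
Levels of the 6 genes in fibroblasts, myeloid cells and endothelial cells, in CPM on an axis that is linear up to 10 and logarithmic above; each point is 1 library and bars are 95% Poisson intervals. Axl sits highest in fibroblasts, and Mertk in myeloid cells in all libraries but healthy knockout, where endothelial cells are higher (22.6 against 18.4 CPM). Tyro3 stays below 5 CPM in all 3, and Gas6 has the widest spread between libraries, from 63.9 to 762 CPM in myeloid cells.

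Gas6, the ligand shared by all 3 receptors, was made in all 3 classes. Fibroblasts held 883, 425, 386, 502, 406 and 476 CPM, so that the healthy wild type library stood above the other 5. Myeloid cells held 762, 336.5, 63.9, 369, 139.5 and 202 CPM, and endothelial cells 259, 317, 66.3, 365, 117 and 238.5 CPM. In both, arthritic wild type was the lowest library and isotype the next lowest. Gas6 was lower than in fibroblasts by -1.03 in myeloid cells (SE 0.264, edgeR adjusted p = 0.00266) and by -1.76 in endothelial cells (SE 0.276, adjusted p = 5.32e-05). The difference of endothelial from myeloid cells, -0.73 (SE 0.271, edgeR adjusted p = 0.0312), was lost with DESeq2 (adjusted p = 0.0538), without the healthy wild type library (-0.41, adjusted p = 0.231) and without the isotype library (adjusted p = 0.0613). A Gas6 UMI was found in 65.4% of fibroblasts, 39.0% of myeloid cells, 36.9% of endothelial cells and 2.24% of T and NK cells (0.907 to 4.57%).

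Pros1, which encodes Protein S, was the most even of the 6 between classes. It stood at 88.2, 61.5, 65.2, 59.6, 65.5 and 53.7 CPM in fibroblasts, at 118, 82.3, 46.6, 81.9, 55.5 and 48.6 CPM in myeloid cells and at 116, 109, 96.8, 89.3, 97.4 and 114 CPM in endothelial cells. None of its 3 class differences passed (log2 differences 0.13, 0.25 and 0.12, SE 0.131 to 0.143, edgeR adjusted p = 0.407, 0.157 and 0.508).

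Mfge8 was a ligand of stromal and vascular cells. Fibroblasts held 147, 104, 127, 126, 157 and 178 CPM and endothelial cells 196, 181, 138, 231, 157.5 and 259.7 CPM, while myeloid cells held 25.1, 20.85, 14.02, 22.8, 20.5 and 19.4 CPM. Myeloid Mfge8 was lower by -2.73 than in fibroblasts (SE 0.133, edgeR adjusted p = 2.70e-11), and endothelial Mfge8 was 2.77 above myeloid cells (SE 0.138, adjusted p = 8.36e-11). Endothelial cells and fibroblasts did not pass (0.03, SE 0.124, edgeR adjusted p = 0.859). The highest Mfge8 level of any class was in mural cells, the pericytes and smooth muscle cells of vessel walls, at 848 CPM (304 UMIs in 116 cells of all libraries).

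Within fibroblasts, Axl and Gas6 took nearly opposite places. The lining-like cluster, led by Clic5, Hbegf and Prg4 (the lubricin gene of the joint surface), held Axl at 503, 567, 453, 645, 451 and 428 CPM. Its Gas6 was 47.3, 29.9, 19.8, 27.5, 29.6 and 40.2 CPM, the lowest of the 8 fibroblast clusters. This cluster was 16.4% of fibroblasts and held 35.9% of their Axl UMIs and 1.16% of their Gas6 UMIs. Subtypes were clustered from the same cells, with the 6 genes held out of the genes used, so differences between them are described by counts of libraries and without a test.

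The sublining-like cluster led by Myoc and Penk was the reverse. Its Gas6 stood at 1900, 938, 720, 971 and 1520 CPM in the 5 libraries with at least 30 of its cells (all but isotype), 31.4 to 40.2 times the lining-like level of the same library. Its Axl was 167, 165, 137, 164 and 109 CPM, and lining-like Axl was 3.002 to 3.93 times higher in these 5 libraries. In the cluster led by Sfrp4 and Cfd Gas6 stood at 1023, 486, 529, 642.5, 454 and 581 CPM and Axl at 164, 224, 201, 243, 192 and 224 CPM. Gas6 there was 14.5 to 26.8 times the lining-like level in 6 of 6 libraries. These 2 clusters were 15.9% and 15.7% of fibroblasts and held 28.9% and 26.6% of fibroblast Gas6 UMIs.

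The Pi16 sublining-like cluster, of the adventitial kind marked by Pi16 and Dpp4, combined both genes. Axl stood at 551, 405, 635, 561, 390 and 454 CPM, above the cluster led by Sfrp4 and Cfd by 1.81 to 3.36 times and above that led by Ccl11 and Fst by 2.01 to 3.29 times, in 6 of 6 libraries each. Against the lining-like cluster the Axl level of Pi16 cells was lower in 3 libraries and higher in 3. The intervals were apart in 2 libraries and in opposite directions, with Pi16 cells lower in the healthy knockout library (405 against 567 CPM) and higher in the arthritic wild type library (635 against 453 CPM), so these neighbours in the order of Axl had no fixed order. Gas6 in Pi16 cells, at 375, 319, 209, 254, 317 and 314 CPM, was 7.82 to 10.7 times the lining-like level. In the cluster led by Ccl11 and Fst, Gas6 was 645, 380, 525, 374, 561 and 531 CPM.

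**Figure D2:**
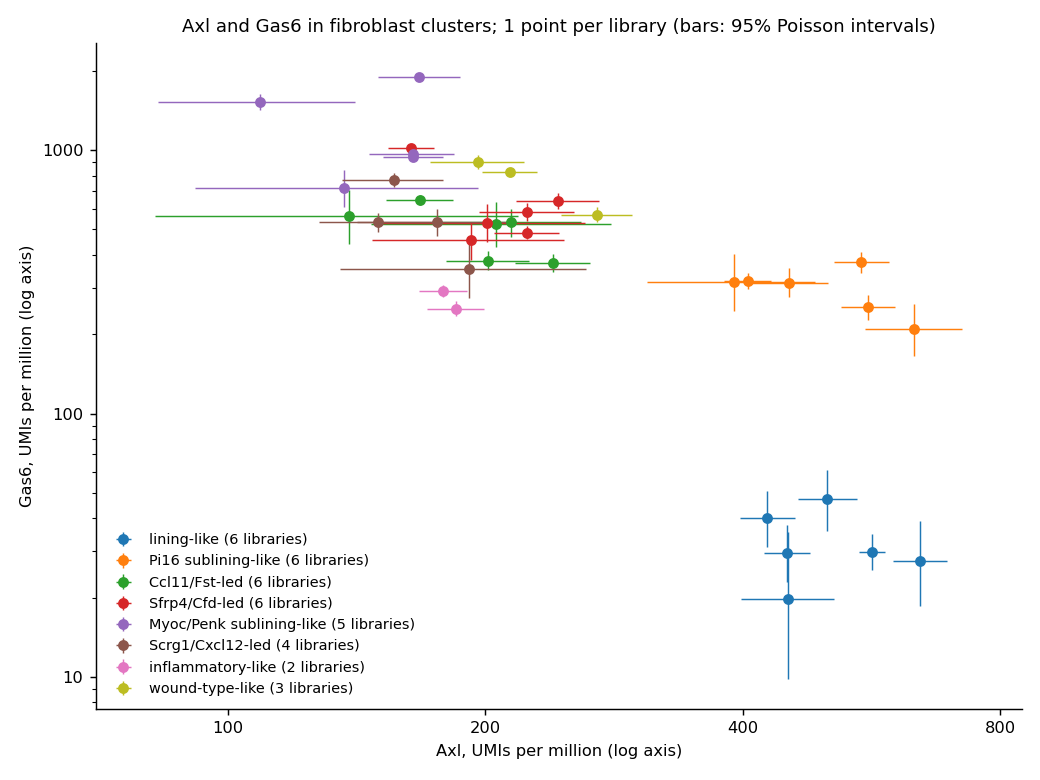
Axl against Gas6 levels of fibroblast clusters, both in CPM on logarithmic axes; each point is a cluster in 1 library and bars are 95% Poisson intervals. Lining-like points sit apart at high Axl (428 to 645 CPM) and low Gas6 (19.8 to 47.3 CPM), the Myoc and Penk cluster at low Axl and high Gas6, and the Pi16 cluster at high Axl with intermediate Gas6.

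The clusters seen mainly in inflamed joints differed from each other in Gas6. The inflammatory-like cluster led by Saa3 and Hp came from the arthritic wild type and isotype libraries (442 and 576 cells) and held Axl at 185 and 178 CPM and Gas6 at 250 and 291 CPM. The wound-type-like cluster held Axl at 196, 214 and 270 CPM and Gas6 at 901, 827 and 568 CPM in the arthritic wild type, isotype and anti-Notch3 libraries. Its Gas6 was thus above that of the Myoc and Penk cluster in the arthritic wild type library (720 CPM) and below it with anti-Notch3 (1520 CPM), and in the isotype library it was the highest of the fibroblast clusters with at least 30 cells. With cells thinned to 2000 UMIs, an Axl UMI was found in 64.2% of lining-like and 56.4% of Pi16 cells and a Gas6 UMI in 5.56% and 35.3%, against 92.0%, 80.6%, 16.15% and 57.2% before thinning.

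Mfge8 and Pros1 marked other borders of the stroma. Mfge8 was highest outside the named fibroblasts, at 423, 668, 749 and 733 CPM in the tendon-like cluster of the healthy wild type, healthy knockout, arthritic knockout and isotype libraries, 2.03 to 4.03 times the Sfrp4 and Cfd cluster. Among fibroblasts it stood at 208, 168, 160.5, 186, 205 and 244 CPM in the Sfrp4 and Cfd cluster and at 97.02, 98.1, 61.7, 108, 84.5 and 96.96 CPM in the Ccl11 and Fst cluster. The former was 1.71 to 2.60 times the latter in 6 of 6 libraries. Pros1 was 1.66 to 2.51 times higher in the Myoc and Penk cluster than in the lining-like cluster in 5 of 5 libraries, with intervals apart in 3.

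In macrophages Mertk, Gas6 and Pros1 were all present in the resident-like clusters. The cluster led by Vsig4 and Lyve1, genes of resident tissue macrophages, held Mertk at 56.0, 40.4, 44.5, 40.4, 53.1 and 32.4 CPM. Its Gas6 stood at 1069, 694, 431.5, 692, 496 and 656.5 CPM and its Pros1 at 137, 146, 129, 127, 149 and 98.9 CPM. A second resident-like cluster, led by Ccl24 and Pf4, held Gas6 at 1023, 716, 653 and 728 CPM, Mertk at 68.1, 32.5, 12.7 and 27.6 CPM (the last 2 on 2 and 3 UMIs) and Pros1 at 159, 133, 108 and 101 CPM in the 4 libraries with at least 30 of its cells (both healthy libraries, arthritic knockout and anti-Notch3). The 2 clusters were 36.0% of myeloid cells and held 92.0% of myeloid Gas6 UMIs, 69.8% of Pros1 and 68.9% of Mertk, but 15.75% of Axl, over all libraries together. By library the Mertk share was 98.75, 92.75, 20.3, 93.3, 27.0 and 25.3%, so most myeloid Mertk UMIs lay outside these clusters in the arthritic wild type, isotype and anti-Notch3 libraries, where they were 8.28, 12.6 and 21.5% of myeloid cells. The Pros1 share ran from 27.3 to 87.3% and that of Gas6 from 47.1 to 98.7%.

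The MHC-II-high-like cluster, cells of an antigen-presenting kind, was nearly bare of Mertk and Gas6. It held 6 Mertk UMIs in 989 cells, at 0, 2.23, 0, 0, 0 and 2.24 CPM, and Gas6 at 9.68, 15.02, 3.28, 7.38, 26.2 and 8.94 CPM. Gas6 was higher in Vsig4 and Lyve1 cells in 6 of 6 libraries, by 19.0 to 110 times in the 5 libraries with more than 3 UMIs in each cluster. Pros1 was 2.66 to 9.84 times higher in Vsig4 and Lyve1 cells in 6 of 6. Axl went the other way, at 92.8, 48.4, 57.3, 46.7, 61.0 and 71.5 CPM in MHC-II-high-like cells and 7.89, 25.6, 17.8, 32.3, 21.2 and 12.4 CPM in Vsig4 and Lyve1 cells, 1.45 to 11.8 times higher in the former in 6 of 6 libraries, with intervals apart in 3. Fibroblast markers in Vsig4 and Lyve1 cells summed to 115, 848, 231, 180, 641 and 255 CPM; the part of free fibroblast RNA in their low Axl was not tested.

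The Trem2-like cluster, led by Ms4a7, Apoe and Trem2, was 52.1, 67.7 and 57.2% of myeloid cells in the arthritic wild type, isotype and anti-Notch3 libraries. Its Gas6 lay between that of the resident-like and MHC-II-high-like cells, and its median Axl was the highest of the myeloid clusters. Mertk stood at 13.4 and 7.40 CPM in the healthy libraries (3 and 1 UMIs) and at 35.2, 29.8 and 34.6 CPM in the arthritic wild type, isotype and anti-Notch3 libraries. In those 3 the Vsig4 and Lyve1 cells held Mertk at 44.5, 53.1 and 32.4 CPM, 0.937 to 1.78 times the Trem2-like level. Vsig4 and Lyve1 cells were higher in 4 of 5 libraries, with intervals apart in 1. Trem2-like Gas6 was 183, 141, 46.2, 109 and 118 CPM, below Vsig4 and Lyve1 cells by 4.57 to 9.35 times in 5 of 5 libraries. Axl was 161, 156, 128, 41.0 and 74.3 CPM, above them by 1.93 to 20.4 times in 5 of 5, with intervals apart in 4. It was above MHC-II-high-like Axl in 4 of 5 libraries, with intervals apart in 3, and below it in the isotype library. The monocyte-like cluster, mostly of the arthritic wild type library (265 cells), held Axl at 80.5 CPM, Pros1 at 25.7 CPM and Gas6 at 9.33 CPM (8 UMIs) there.

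**Figure D3:**
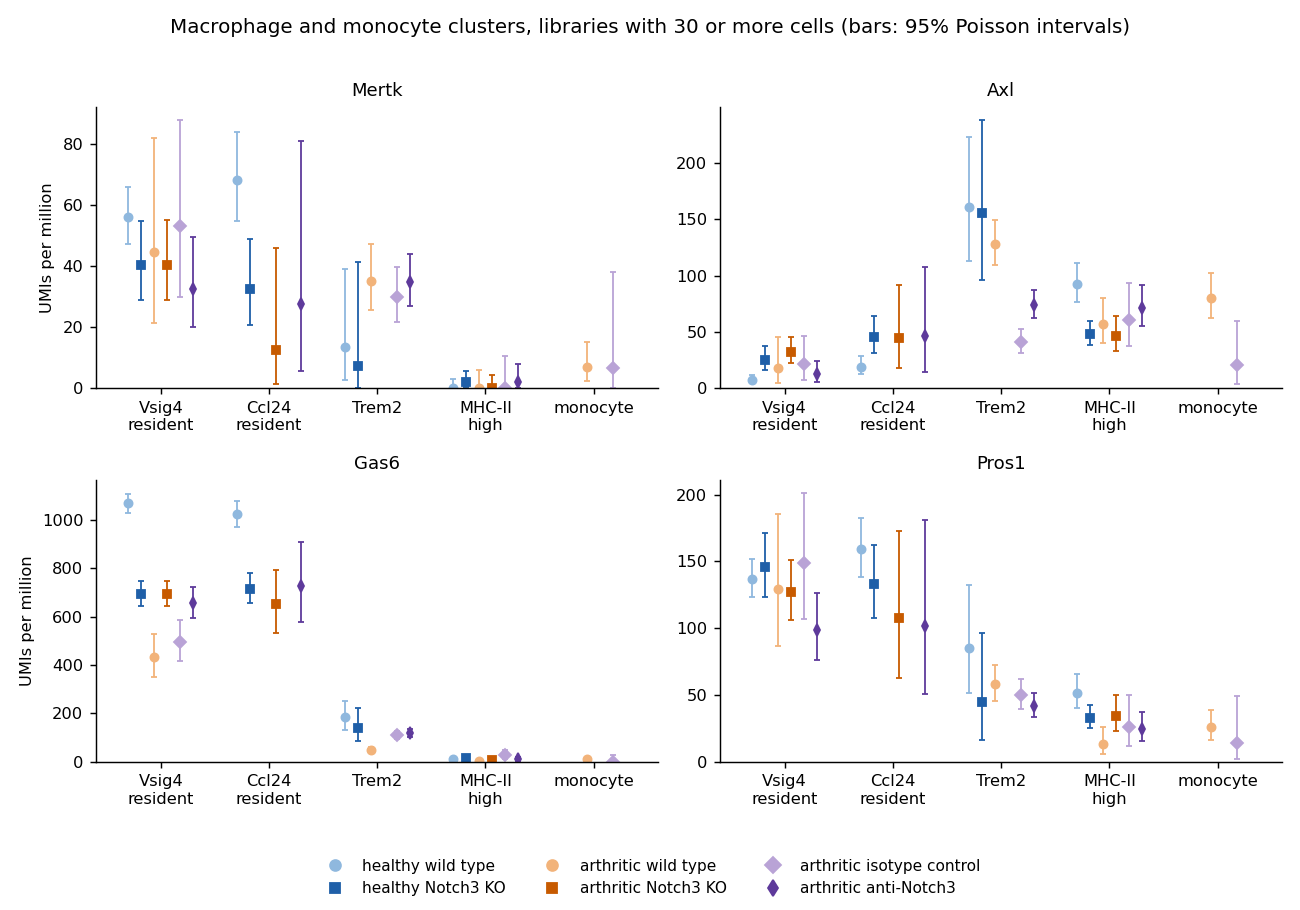
Levels of Mertk, Axl, Gas6 and Pros1 in the myeloid clusters, in CPM with 95% Poisson intervals; each point is 1 library. Gas6 and Mertk are high in both resident-like clusters and near 0 for Mertk in MHC-II-high-like cells, while Axl is lowest in the Vsig4 and Lyve1 cluster (7.89 to 32.3 CPM).

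The capillary-like and venous-like clusters, with 739 and 326 cells, could be followed. In the venous-like cluster Gas6 stood at 388.5, 70.3, 558.5, 170 and 328 CPM in the 5 libraries from healthy knockout on. In the capillary-like cluster it stood at 196, 248, 29.2, 279, 80.7 and 176 CPM, so venous-like cells were 1.57 to 2.41 times higher in 5 of 5 libraries, with intervals apart in 3. Venous-like cells were 29.5% of endothelial cells and held 46.8% of endothelial Gas6 UMIs. Pros1 was 128, 117, 121, 141 and 122 CPM in venous-like and 114, 73.2, 76.9, 75.5, 65.6 and 108 CPM in capillary-like cells. Mfge8 in capillary-like cells stood at 162, 172, 143, 221, 161 and 288 CPM.

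The question behind the Notch3 pairs was how losing or blocking Notch3 changes the synovium in health and in arthritis. With 1 library a group, the ratio of 2 libraries compares those libraries and not the conditions, and carries a 95% conditional binomial interval for counting error. The median log2 ratio over all genes was -0.35 in myeloid cells of the healthy pair, -0.15 in those of the antibody pair, -0.12 in fibroblasts of the healthy pair and -0.10 to -0.12 in endothelial cells of the 3 pairs, so a ratio of 1 lay above that of the median gene there. A class sum can also move with the mix of its subtypes, and a change of mix cannot be told apart from a change per cell in it. In fibroblasts, Axl was 1.51 times higher in knockout than wild type in health (1.44 to 1.57), 1.41 times in arthritis (1.33 to 1.51) and 1.24 times with anti-Notch3 over isotype (1.17 to 1.32). The 3 targeted libraries, at 302 to 341 CPM, did not overlap the 3 others, at 227 to 243 CPM. A model of 1 shared targeting effect over the 3 pairs gave Axl 0.54 on the log2 scale (SE 0.159, edgeR adjusted p = 0.445), which did not pass, in a fit that called 0.024% of 12480 genes.

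The share of Pi16 cells, 1 of the 2 clusters high in Axl, moved with it. Pi16 cells were 11.2, 16.9, 8.76, 18.3, 3.40 and 15.1% of fibroblasts, higher in the targeted library of each pair and with no overlap between targeted and other libraries. The lining-like share, at 5.68, 25.2, 9.57, 9.96, 17.5 and 20.9%, did not follow Axl in the arthritic genotype pair, where it was nearly level. The inflammatory-like share was 0.179, 0.150, 44.5, 0.182, 37.7 and 2.24%. With equal weight for the 4 clusters that had at least 30 cells in every library, Axl was 346, 349, 374, 422, 293 and 330 CPM, and the targeted and other libraries overlapped. Within the Sfrp4 and Cfd cluster the Axl ratios of the healthy, arthritic genotype and antibody pairs were 1.37, 1.21 and 1.16. In the Ccl11 and Fst cluster they were 1.20, 1.17 and 1.55, and both clusters had intervals that included 1 in the arthritic pairs. Pi16 cells stood at 0.736, 0.883 and 1.16 and lining-like cells at 1.13, 1.425 and 0.948. The Myoc and Penk cluster stood at 0.984 and 1.20 and the Scrg1 and Cxcl12 cluster at 1.04 and 0.919 in the genotype pairs. Wound-type-like cells stood at 1.26 in the antibody pair. Arthritic fibroblasts held 1.03 times the Axl of healthy ones in wild type and 0.967 times in knockout libraries.

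Gas6 in fibroblasts differed in direction between pairs. It was 0.481 times in the healthy knockout library of its wild type partner (0.467 to 0.495), and 1.30 times (1.24 to 1.37) and 1.17 times (1.12 to 1.23) in the arthritic knockout and anti-Notch3 libraries. The clusters did not all share these directions. The cluster led by Sfrp4 and Cfd, at 0.475, 1.21 and 1.28 times, and the lining-like cluster, at 0.633, 1.39 and 1.36 times, did, although the intervals of the latter included 1 in both arthritic pairs. The cluster led by Ccl11 and Fst was lower in all 3 pairs, at 0.589, 0.712 and 0.947 times, and Pi16 cells stood at 0.851, 1.21 and 0.991 times. The Myoc and Penk cluster was 0.494 and 1.35 times and the cluster led by Scrg1 and Cxcl12 1.45 and 1.51 times in the 2 genotype pairs, and wound-type-like cells were 0.688 times in the antibody pair. Equal weighting gave Gas6 of 523, 304, 321, 324, 340 and 367 CPM, so the healthy wild type library stayed above the rest. Of the 6 genes, 1 was at least 1.5-fold higher (Axl) and 3 lower (Gas6, Mertk and Tyro3) in healthy knockout fibroblasts, where 28.6% of all genes passed that fold in either direction. In the arthritic genotype pair 0 were higher and 1 lower (Tyro3, within 1.5-fold under median-of-ratios scaling) beside 29.7% of all genes. The Tyro3 intervals, 0.360 to 1.008 in the healthy and 0.368 to 1.18 in the arthritic genotype pair, included 1. In the antibody pair 1 was higher, Mertk at 1.63 times (0.930 to 2.86), an interval that includes 1, beside 21.9% of all genes.

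In myeloid cells Gas6 and the share of resident-like cells ranked the libraries alike. Gas6 was 0.441 times in healthy knockout of wild type (0.414 to 0.470), 5.77 times in arthritic knockout (4.93 to 6.78) and 1.45 times with anti-Notch3 (1.27 to 1.65). The 2 resident-like clusters were 71.0, 54.9, 8.28, 58.1, 12.6 and 21.5% of myeloid cells, in the same order of libraries as the myeloid Gas6 levels (762, 336.5, 63.9, 369, 139.5 and 202 CPM). In the arthritic wild type library 64.8% of myeloid Gas6 UMIs came from these 8.28% of cells. Within the Vsig4 and Lyve1 cluster the ratios were nearer to 1, at 0.650 (0.598 to 0.706), 1.60 (1.30 to 2.01) and 1.32 (1.09 to 1.62). With the Vsig4 and Lyve1 and the MHC-II-high-like clusters weighted equally, myeloid Gas6 was 539, 355, 217, 350, 261 and 333 CPM. Between the arthritic libraries without Notch3 targeting, isotype held 2.18 times the myeloid Gas6 of wild type (1.82 to 2.62).

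**Figure D4:**
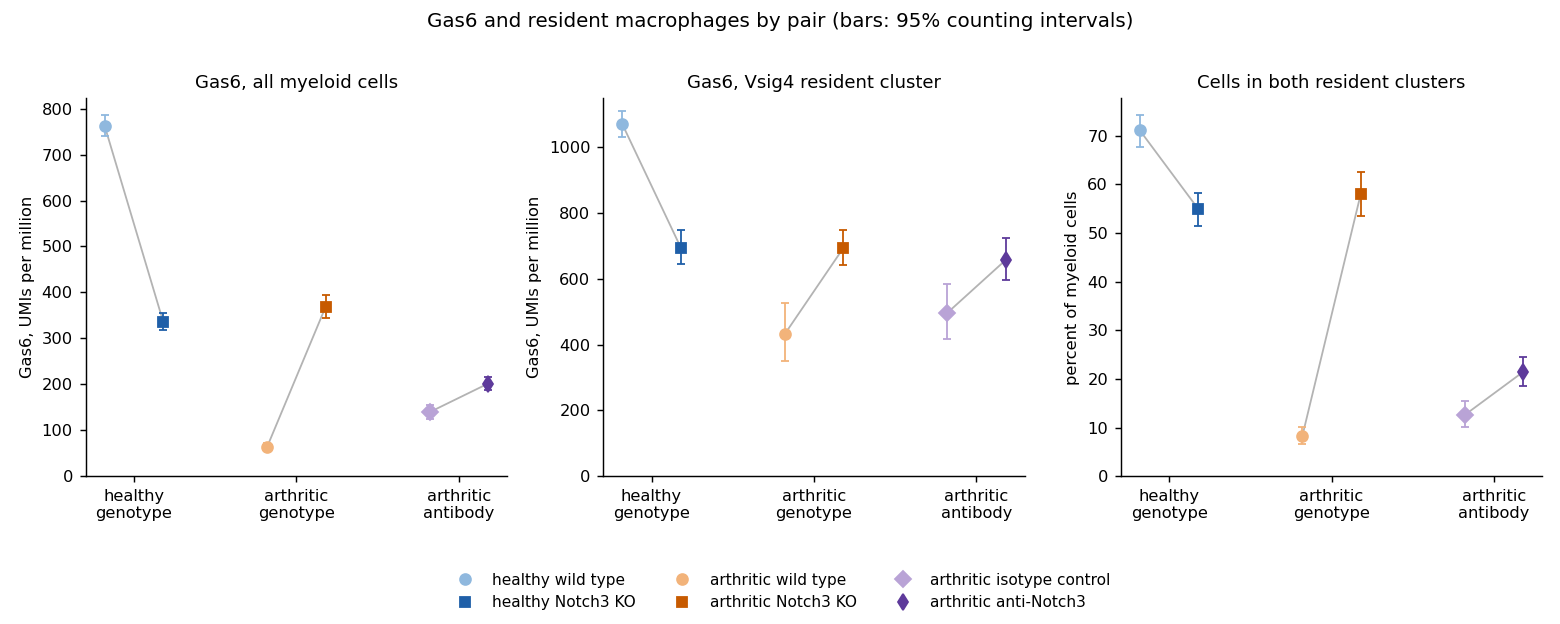
Gas6 levels of all myeloid cells and of the Vsig4 and Lyve1 cluster, in CPM, and the share of resident-like cells among myeloid cells in percent, with lines joining the 2 libraries of each Notch3 pair and 95% intervals. In the arthritic genotype pair Gas6 goes from 63.9 to 369 CPM over all myeloid cells and from 431.5 to 692 CPM within the cluster, while the resident-like share goes from 8.28 to 58.1%.

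The other myeloid values moved less often. Mertk was 0.425 times in healthy knockout of wild type (0.321 to 0.558), and 0.981 and 0.954 times in the arthritic pairs. In the Vsig4 and Lyve1 cluster the Mertk ratios were 0.721, 0.908 and 0.611. In the Ccl24 and Pf4 cluster the ratio of the healthy pair was 0.478 (0.288 to 0.763). Axl was highest in the arthritic wild type library, 2.53 times healthy wild type (2.10 to 3.06), and 0.497 times as high in arthritic knockout (0.391 to 0.627). In the arthritic wild type library Trem2-like cells held 164 of 278 myeloid Axl UMIs. They were 52.1% of myeloid cells there, against 3.93% in healthy wild type. From healthy to arthritic wild type, Axl was 0.798 times (0.553 to 1.18) in Trem2-like and 0.618 times (0.411 to 0.909) in MHC-II-high-like cells. In Vsig4 and Lyve1 cells it was 2.255 times (0.563 to 6.68), on 21 and 4 UMIs. The arthritic wild type library also held the monocyte-like cells and had the highest interferon response genes, at a summed 1383 CPM against 73.7 to 328 CPM. The part of the cell mix and of these genes in the Axl level was not tested. Pros1 was 0.697, 1.76 (1.40 to 2.20) and 0.876 times, against 1.06, 0.986 and 0.665 in the Vsig4 and Lyve1 cluster. In the arthritic genotype pair 3 of the 6 genes were higher (Gas6, Pros1 and Mfge8) and 1 lower (Axl), beside 34.9% of all genes past 1.5-fold; in the antibody pair none was, beside 24.9% (Axl and Gas6 passed it under median-of-ratios scaling), and in the healthy pair 2 were lower (Gas6 and Mertk) beside 38.9%, with Axl higher under that scaling or with doublets kept. Between healthy and arthritic wild type, 1 was higher (Axl) and 4 were lower (all tested but Axl; Mfge8 not under that scaling), beside 47.8% of all genes; these ratios share libraries with the pairs.

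Tests over all pairs called none of the 6 genes in any class. The shared targeting effect called 0 of 10301 genes in myeloid cells and 0 of 6952 in endothelial cells with edgeR at adjusted p under 0.05 (569 and 548 at an unadjusted p under 0.05, and 27 and 20 with DESeq2). With no filter on low counts that test called endothelial Gas6 (1.28, edgeR adjusted p = 0.00509). Without the healthy pair it called 651, 16 and 1085 genes in fibroblasts, myeloid and endothelial cells, among them endothelial Gas6, Mfge8 and Axl. Arthritis against health in the genotype pairs called 0 genes in fibroblasts and endothelial cells (577 and 272 unadjusted, 4 and 1 with DESeq2) and 4 in myeloid cells (0.0388%), none of the 6. That contrast averages both genotypes. Between single libraries, arthritic over healthy Gas6 was 0.0839 times in myeloid cells, 0.256 in endothelial cells and 0.437 in fibroblasts of wild type. In knockout libraries it was 1.10, 1.15 and 1.18 times. A second model gave the healthy pair its own effect and estimated the targeting effect in the 2 arthritic pairs. It leaves 1 residual degree of freedom, so its p-values rest mostly on a spread pooled over genes; in the fits of single clusters other than the lining-like and the Sfrp4 and Cfd ones the prior degrees of freedom were infinite, and the p-values rest on the pooled spread alone. There fibroblast Axl was 0.47 (SE 0.162, edgeR adjusted p = 0.156) and fibroblast Gas6 0.37 (SE 0.167, adjusted p = 0.263), in a fit that called 5.31% of 13061 genes. Myeloid Gas6 was 1.57 (SE 0.415, adjusted p = 0.244), in a fit that called 0.337% of 10972 genes; with no filter on low counts it passed at 5.49e-06. In the Vsig4 and Lyve1 cluster Gas6 was 0.53 (edgeR adjusted p = 0.166) beside 0.657% of 8070 genes called.

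In endothelial cells Gas6 was higher in the Notch3-targeted library of both arthritic pairs. Gas6 went from 66.3 to 365 CPM between arthritic wild type and knockout (5.50 times, 4.01 to 7.67) and from 117 to 238.5 CPM between isotype and anti-Notch3 (2.03 times, 1.53 to 2.68), while healthy wild type and knockout lay at 259 and 317 CPM (1.22 times, 0.974 to 1.54). The 2 arthritic control libraries were thus below the 4 others, and the arthritic targeted libraries lay just above and just below the healthy pair. The 2 control libraries also differed from each other, with isotype at 1.77 times the Gas6 of arthritic wild type (1.27 to 2.51). The arthritic-pair effect was 1.78 on the log2 scale (SE 0.248, edgeR adjusted p = 2.07e-09; DESeq2 0.00404). In that fit 14.2% of 7828 genes were called, 8.29% higher and 5.89% lower, and its p-values rest mostly on a spread pooled over genes (158 prior against 1 residual degrees of freedom).

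Mfge8 was higher in the targeted library of both arthritic pairs as well, and isotype held 1.14 times its arthritic wild type level (0.890 to 1.47). Its level was 138 and 231 CPM in the arthritic genotype pair (1.67 times, 1.28 to 2.20) and 157.5 and 259.7 CPM in the antibody pair (1.65 times, 1.27 to 2.13), against 0.923 times in health. The arthritic-pair effect was 0.80 (SE 0.227, edgeR adjusted p = 0.00656), which DESeq2 did not call (0.506). Axl passed too, at 1.77 (SE 0.609, edgeR adjusted p = 0.0330), on 4, 14, 10 and 8 UMIs and at a share of cells no higher than in T and NK cells; it was lost at a finer clustering (1.40, adjusted p = 0.0904). Mertk (0.92, edgeR adjusted p = 0.473) and Pros1 (0.13, adjusted p = 0.809) did not pass, and Tyro3 had too few UMIs to be tested. So 3 of the 5 tested genes were called higher by edgeR, beside 8.29% of all genes, with the limits just given for Mfge8 and Axl.

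The capillary-like cluster alone gave values of the same direction. Gas6 was 9.58 times higher in arthritic knockout than wild type (5.13 to 19.8; 100 and 11 UMIs) and 2.18 times with anti-Notch3 (1.39 to 3.39; 39 and 48 UMIs), with an arthritic-pair effect of 2.07 (edgeR adjusted p = 5.15e-09; DESeq2 0.0299) in a fit that called 14.1% of 6488 genes and whose p-values rest on the pooled spread alone. Axl was 2.90 (adjusted p = 0.00293) on 1, 14, 4 and 8 UMIs, and Mfge8 was 0.78 (adjusted p = 0.0409, lost with DESeq2 and, at 0.151, with no filter on low counts). In the venous-like cluster Gas6 stood at 70.3 and 558.5 CPM, and at 170 and 328 CPM, in the 2 arthritic pairs, in the direction of the capillary-like cells.

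**Figure D5:**
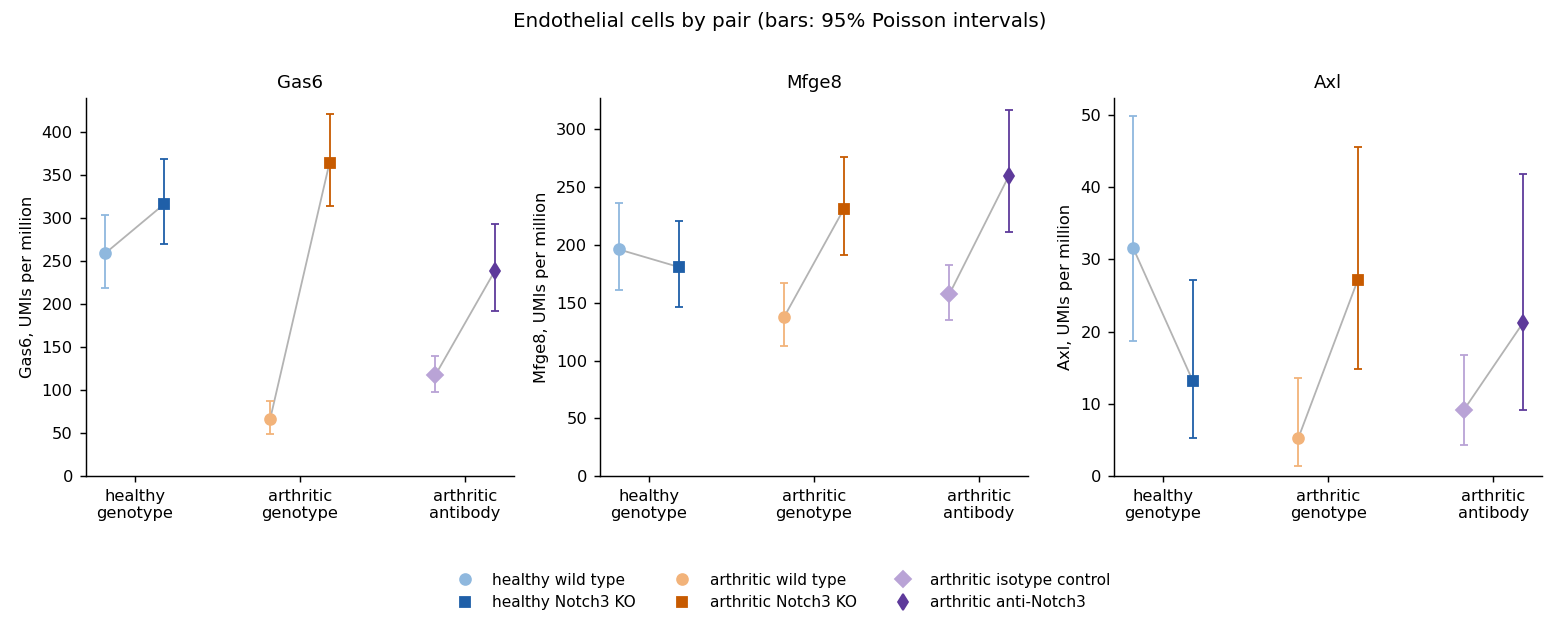
Gas6, Mfge8 and Axl levels of endothelial cells, in CPM with 95% Poisson intervals, with lines joining the 2 libraries of each Notch3 pair. Gas6 and Mfge8 go up in both arthritic pairs (Gas6 66.3 to 365 and 117 to 238.5 CPM), the healthy pair is flatter, and Axl rests on 4 to 18 UMIs a library.

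Other measures moved with these endothelial libraries. Dissociation stress genes, the early response genes that tissue digestion raises, summed to 18700, 30050, 12140, 31730, 15980 and 22940 CPM in endothelial cells, with 12 of 12 detected in each library; 9 of the 12 passed as higher and 1 as lower in the arthritic-pair fit. Capillary marker genes summed to 31950, 17050, 4496, 28130, 7687 and 25290 CPM, and capillary-like cells were 78.9, 67.4, 51.9, 76.9, 56.0 and 66.9% of endothelial cells. Fibroblast RNA in endothelial cells (Col1a1, Col1a2, Col3a1, Dcn and Lum) summed to 1416, 2712, 598, 1083, 2194 and 260 CPM. The part of stress, of the capillary genes and of fibroblast RNA in the Gas6 and Mfge8 results was not tested.

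The difference between arthritic and healthy targeting effects was added as a contrast after these values were seen, and rests on 1 healthy pair that is assumed to vary like the arthritic ones. Gas6 passed in endothelial cells (1.34, SE 0.408, edgeR adjusted p = 0.0220, beside 7.95% of genes) and in the Sfrp4 and Cfd fibroblast cluster (1.40, SE 0.329, adjusted p = 0.00564, beside 1.98%). It passed also in the Vsig4 and Lyve1 macrophage cluster (1.003, edgeR adjusted p = 0.0238, beside 1.31%) and in the capillary-like cluster (1.62, adjusted p = 0.01995, beside 7.83%). In the lining-like, Ccl11 and Fst, Pi16 and MHC-II-high-like clusters it did not pass (1.10, 0.47, 0.23 and -1.25, edgeR adjusted p = 0.502, 0.894, 0.974 and 0.905). None of the 4 that passed was called by DESeq2 (adjusted p = 0.623, 0.343, 1.0 and 0.721), and those of all endothelial and of capillary-like cells were lost with no filter on low counts (0.0660 and 0.0788). Gas6 over all fibroblasts (1.35, edgeR adjusted p = 0.0598, beside 2.76%) did not pass, but did with DESeq2 (0.0340) and at a finer clustering (0.0480). Over all myeloid cells it did not pass either (2.42, edgeR adjusted p = 0.353, where none of 10972 genes was called) and did with no filter on low counts (3.93e-05).

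Other genes of dead-cell clearance were compared by lists. Between myeloid cells and fibroblasts, 7 of 11 tested receptors for phosphatidylserine or debris were higher in myeloid cells, among them Trem2 (log2 difference 8.08), Timd4 (7.98), Havcr2 (7.22), Stab1 (6.996) and Cd36 (6.46), and 3 were lower, among them the low-density lipoprotein receptor relative Lrp1 (-1.49), in the fit of 12413 genes by edgeR. Of 8 opsonins and bridging molecules, 4 were higher (C1qa 9.28, C1qc 8.95, C1qb 8.88 and Thbs1) and 4 lower, among them the pentraxin Ptx3 (-5.65). Trem2, Timd4 and C1qa were also in the marker lists that named myeloid clusters, so their direction was partly set by the naming. Only the 6 genes, and not these lists, were kept out of the markers. Engulfment machinery had 4 of 8 higher (Vav1 7.62) and 1 lower (Gulp1 -6.52), and lipid handling had 4 of 8 higher (the cholesterol exporter Abcg1 4.70) and none lower. Among genes that process or relay TAM signals, Adam10 and Adam17, proteases that shed the receptors, and Ifnar1 were higher, and 5 were lower, among them Ggcx (-2.67) and Vkorc1 (-2.18), the enzymes of vitamin K-dependent carboxylation that activate Gas6 and Protein S. So the carboxylation enzymes were higher in fibroblasts than in myeloid cells, as Gas6 was, while the share of all genes called in that comparison was 65.6%.

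In the arthritic-pair fit of endothelial cells, which called 8.29% of all genes higher and 5.89% lower, the receptor list had 1 of 7 tested genes higher, Cd36 (2.88, edgeR adjusted p = 1.23e-19), and 3 lower, Stab1 (-0.90, adjusted p = 0.0153), Itgav (-1.73, adjusted p = 0.00266) and Itgb3 (-1.90, adjusted p = 0.0352). Itgav and Itgb3 encode the integrin pair that binds Mfge8, and Cd36 was also a gene of the capillary marker list. Of 6 tested opsonins 2 were lower, Anxa1 (-1.35, edgeR adjusted p = 2.04e-06) and Thbs1 (-2.11, adjusted p = 3.61e-07). Pparg, a nuclear receptor of lipid handling, was higher (2.28, edgeR adjusted p = 1.47e-11), and the lipid exporter Abca1 lower (-1.0001, adjusted p = 0.00288), of 6 tested. Socs1, a feedback inhibitor of cytokine signalling from the list of TAM processing and signalling genes, was the 1 of 7 tested that was called (2.11, edgeR adjusted p = 1.64e-11). List medians lay between -0.89 for opsonins and 0.29 for lipid handling, beside -0.01 over all genes. In the same fit of fibroblasts, which called 5.31% of all genes, 1 of 8 opsonins was called lower, the Mfge8 relative Edil3 (-1.51, edgeR adjusted p = 0.0286). There 1 of 8 genes of lipid handling was called higher, Nr1h3 (1.05, adjusted p = 0.0321), and 1 of 9 of TAM processing and signalling, Socs1 (1.55, adjusted p = 0.0435). No receptor (8 tested) or engulfment gene (7 tested) was called, and in myeloid cells none of these lists held a called gene.

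The genes whose levels ran most like each of the 6 were found over 90 sums of a cluster in a library with at least 30 cells, among 11652 genes, by Pearson's r of log2(CPM + 1). The sums share libraries and cell types, so r is a description. Axl ran most like Lrp1 (r = 0.818), Creb5 (0.805) and Txndc5 (0.793), and Gas6 most like the growth factor Igf1 (0.849), Dpysl3 (0.798) and Rnase4 (0.757). Mertk ran most like Stab1 (0.723), Selenop (0.695) and Cbr2 (0.674), Pros1 like Ctnnd1 (0.830), Tns1 (0.785) and Ulk2 (0.785), and Mfge8 like Igfbp7 (0.874), Cavin3 (0.863) and Plpp1 (0.851). Tyro3, with few UMIs, reached 0.606 with Gsc. Axl and its ligand Gas6 had r = 0.163 over the same sums.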

How the data were processed

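Synovial cells of 6 pooled mouse libraries were measured by 10x Genomics 3′ single-cell RNA sequencing. The values deposited are raw, whole-number UMI counts for each gene and barcode; the submitters' processing notes list Cell Ranger 3.0.2 and the build mm10, and every deposited barcode held more than 500 genes and under 20% mitochondrial UMIs.

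Of these, 414 with over 10% mitochondrial UMIs were dropped. Scrublet in scanpy 1.11.5, applied to each library at an expected rate of 0.03, marked 179 doublets (0.99% of 18077; 3 in the isotype and 103 in the healthy knockout library), which entered the clustering and were then left out. Cells were clustered together on 2000 variable genes, without the 6 genes and without stress, sex-linked, mitochondrial, ribosomal, haemoglobin and predicted genes, with 30 principal components, 20 neighbours and leidenalg 0.10.2 at resolution 1. The 25 clusters were named from marker lists, by a rule chosen after seeing the data, so names may differ from those of the study. Tendon- and cartilage-led clusters (1159 cells) were kept out of the fibroblasts.

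Counts were summed per library and class or cluster and tested with edgeR 4.0.16 (quasi-likelihood, TMM scaling, filterByExpr, Benjamini-Hochberg over all genes, threshold 0.05) in R 4.3.3: classes with the library as a block (10 residual degrees of freedom), targeting over 3 pairs (2), and targeting with a separate healthy effect (1). Within-pair ratios were called at 1.5-fold with at least 20 UMIs, with no test. Levels with fewer than 30 cells are not given. The scripts were tested on simulated data. The genes named were the 6, the genes of each list that passed or the most abundant of it, and the 3 genes most like each of the 6. A gene of the lists is not reported here. The 6 genes, the lists and the tests were chosen with earlier results of these data known. Alternatives were DESeq2 1.42.0, median-of-ratios scaling, no low-count filter, doublets kept, all deposited barcodes, resolution 2, leaving out a library or pair, and, added after seeing the data, equal cluster weights and pooling tendon- and cartilage-led clusters.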

Additional observations from a re-analysis of the deposited data

Results flagged for a closer look

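For 5 values the effect of Notch3 targeting in the arthritic pairs differed from that in the healthy pair by a test of the difference (edgeR, adjusted over all genes), and each is given as a value. Gas6 differed by 1.34 (log2) in endothelial cells, 1.40 in the fibroblast cluster led by Sfrp4 and Cfd, 1.003 in the Vsig4 and Lyve1 macrophage cluster and 1.62 in the capillary-like cluster, each time higher in the arthritic pairs. In the Sfrp4 and Cfd cluster Gas6 went from 1023 to 486 CPM in the healthy pair and from 529 to 642.5 and 454 to 581 CPM in the arthritic pairs; in the Vsig4 and Lyve1 cluster from 1069 to 694, from 431.5 to 692 and from 496 to 656.5 CPM. Axl differed by 4.51 in the capillary-like cluster (edgeR adjusted p = 0.00633), on 16 and 4 UMIs in the healthy pair and 1, 14, 4 and 8 UMIs in the arthritic pairs, at 1.47 to 7.23% of cells with a UMI, so that this value rests on 47 UMIs in 739 cells. In the healthy wild type library 6 cells held the 16 Axl UMIs. Over all endothelial cells the log2 Axl ratio of the healthy pair turned from -1.26 to 0.19 with doublets kept. The capillary-like fit was not run with doublets kept. Fibroblast RNA in capillary-like cells summed to 1796, 4036, 183, 1492, 1241 and 365 CPM over the 6 libraries, and its part in the Axl value was not tested. None of the Gas6 values was called by DESeq2, and those of all endothelial and of capillary-like cells were lost with no filter on low counts. The contrast was added after these values were seen. All 5 rest on 1 healthy pair whose libraries were tagged far apart, so genotype and batch cannot be told apart in it.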

How the results depend on the processing

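The labels number no replicates that could be matched across groups; the 3 Notch3 pairs of libraries are the blocks of the targeting fits. With 2 or 1 residual degrees of freedom, counts of called genes moved with the tool: DESeq2 called 171, 27 and 20 genes for the shared targeting effect in fibroblasts, myeloid and endothelial cells (edgeR 3, 0 and 0), 429, 59 and 167 in the arthritic pairs (edgeR 693, 37 and 1110) and 4, 21 and 1 for arthritis (edgeR 0, 4 and 0). With no filter on low counts these were 12, 93 and 244 for the shared effect, 0 in fibroblasts and 499 in myeloid cells for the arthritic pairs, and 3, 121 and 78 for arthritis. The shared effect called 651, 16 and 1085 genes without the healthy pair, 1 in fibroblasts and 1 in endothelial cells without the arthritic genotype pair, and 0 in fibroblasts and 12 in myeloid cells without the antibody pair. In fibroblasts it called 5 with doublets kept, 6 at resolution 2 and 0 with tendon- and cartilage-led clusters pooled, where the arthritic pairs called 414. Myeloid cells of the arthritic pairs called 16 at resolution 2 and 16 from the 4 arthritic libraries alone.

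Directions that turned were all of values that did not pass, except 2 ratios. Without the healthy pair the shared effect was 0.37 for Gas6, 0.33 for Mertk and 0.16 for Mfge8 in fibroblasts (-0.07, -0.10 and -0.04 with it), and -0.17 for Axl and 0.015 for Mertk in myeloid cells. Without the arthritic genotype pair myeloid Gas6 was -0.10 and Pros1 -0.12; without the antibody pair myeloid Axl was -0.20 and endothelial Pros1 -0.0013. With tendon- and cartilage-led clusters pooled, Mfge8 in fibroblasts was -0.10 for arthritis, -0.088 in the arthritic pairs and -0.036 for their difference from the healthy pair. With no filter on low counts fibroblast Axl was -0.0072 for arthritis and Pros1 0.029 in the Sfrp4 and Cfd cluster of the arthritic pairs. Myeloid Mertk in the arthritic pairs was -0.028 with doublets kept and -0.011 at resolution 2. Leaving out 1 library at a time, Mfge8 in endothelial cells against fibroblasts ranged from -0.052 (without arthritic knockout) to 0.12 (without isotype). The endothelial Axl ratios turned with doublets kept, to 0.19 (from -1.26) in the healthy pair and -0.024 (from 1.04) for arthritis in knockouts.

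Median levels over libraries moved beyond their spread for Axl in fibroblasts (347.6 CPM with equal cluster weights, from 273) and in endothelial cells (28.6 CPM over all deposited barcodes, from 17.2). With equal cluster weights Mfge8 in myeloid cells (26.5 CPM) and Pros1 in endothelial cells (76.2 CPM) moved as well. Among endothelial clusters only the capillary-like one had at least 30 cells in every library, so this Pros1 value is its level alone. The class differences of Axl, Mertk, Mfge8 and Pros1 kept their side of the threshold under every alternative run. Depth limits Tyro3 everywhere and Axl and Mertk in endothelium, where 2 to 18 UMIs a library stand behind a level.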

Other observations

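In T and NK cells, a class in which little of the 6 genes would be looked for, Gas6 stood at 5.77, 31.9, 0, 32.1, 11.5 and 0 CPM on 0 to 4 UMIs a library.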
